A study of Caenorhabditis elegans with 15 samples.

Results

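The genes lipl-1, lipl-2, lipl-3, lipl-4 and lipl-5, which encode lysosomal lipases, and acs-2, which encodes an acyl-CoA synthetase of the mitochondria, are described across 5 genotypes of the nematode Caenorhabditis elegans. They are 6 of the 46739 genes in the count table, and all 6 passed the filter on low counts, which left 16888 genes for testing. Each was found by matching its symbol to its WormBase identifier in Ensembl's WBcel235 annotation. The members were chosen from earlier results of these same libraries: acs-2 had been among the large falls of gld2 against wt, and which values chose the lipases is not recorded. Differences from wt are therefore given for these genes as a description, with no test. The comparisons among the mutants are tested, but share the choice of genes, so their p-values are not independent evidence.

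RNA was sequenced from whole worms in 15 libraries, 3 for each genotype. All worms were adults picked by hand 24 h after the middle of the fourth larval stage. The genotypes are the wild type (wt), a knock-out of gld2 alone (gld2), and knock-outs of gld2 together with ccf1 (gld2-ccf1), ccr4 (gld2-ccr4) or parn1 (gld2-parn1), so that every mutant lacks a wild-type gld-2. The labels name no alleles and do not say whether the 3 libraries of a genotype came from separate cultures, so the p-values measure the spread between these libraries, which may be technical. The study's design text sets single mutants of a cytoplasmic poly(A) polymerase beside double mutants that also lack a deadenylase: GLD-2 lengthens poly(A) tails in the germline, and CCF-1, CCR-4 and PARN-1 shorten them.

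Lysosomal lipases release fatty acids from neutral lipids inside the acidic lysosome, including lipid droplets that autophagy delivers there. In the worm the gut is the main fat store, and several lipl genes are known to rise on fasting, when the transcription factor HLH-30 replaces the repressor MXL-3. The fatty acids released are activated by acyl-CoA synthetases and burned by beta-oxidation, and acs-2, a target of the nuclear receptor NHR-49 with its cofactor MDT-15, is the textbook fasting gene of that step.

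All 6 genes lie on chromosome V (WBcel235, 1-based positions), with none next to another. On the plus strand lie lipl-1 (WBGene00010062, 12919986 to 12921692, 5 merged exons, between nid-1 and dhrs-4) and lipl-2 (WBGene00009773, 9791567 to 9793241, 5 exons, between ztf-7 and F46B6.9). Also on the plus strand are lipl-4 (WBGene00019376, 6550171 to 6552186, 5 exons, between K04A8.20 and twk-10) and lipl-5 (WBGene00022642, 385746 to 387740, 6 exons, between ZK6.8 and ZK6.6). The gene acs-2 (WBGene00009221, 15567394 to 15569897, 6 exons, between acr-18 and lsm-5) is on the plus strand too, and lipl-3 (WBGene00020016, 521595 to 524218, 7 exons, between nhr-210 and R11G11.16) is on the minus strand. Of the exon bases of lipl-3, 23 are shared with srw-107 on the same strand, which had 7 counts in all libraries together. Of those of lipl-4, 202 lie opposite a tRNA gene and the noncoding K04A8.15, with 1 count each, and how the authors' counting used strand is not given in the sources used here.

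Library totals ran from 28.07 to 39.45 M counts. The share of nuclear ribosomal RNA was 7.04% in wt replicate 1, 4.303% in gld2 replicate 3, 14.3% in gld2-ccf1 replicate 2 and 6.80% in gld2-parn1 replicate 3, and less than 4% elsewhere. In the count table's header 4 libraries have later track numbers: gld2-ccf1 replicates 1 and 3, gld2-ccr4 replicate 3 and gld2-parn1 replicate 1. No wt or gld2 library is among them, so track is partly confounded with every double mutant against gld2 or wt. What the numbers stand for is not stated. Levels are in CPM, counts per 1000000 of a library's size after scaling by trimmed mean of M values (TMM). RNA of gld-2 averaged 53.7 ± 0.854 CPM in gld2 and 211 ± 32.1 CPM in wt, and ccr-4 averaged 170 ± 7.45 CPM in gld2-ccr4 against 281 ± 16.95 CPM in gld2 (SD, n = 3). The transcript of ccf-1 was not reduced under the gld2-ccf1 label, where it stood at 15544 to 47496 CPM against 31.8 ± 4.38 CPM in gld2. Under the gld2-parn1 label parn-1 stood at 60.6 ± 4.74 CPM against 50.6 ± 4.15 CPM in gld2 (edgeR's quasi-likelihood test, adjusted p = 0.0887). Both genotypes are called by their labels below. The summed level of 19 intestine markers was 1994 to 2135 CPM in wt, 1561 to 1586 CPM in gld2, 1695 to 1881 CPM in gld2-ccf1, 1960 to 2050 CPM in gld2-ccr4 and 1610 to 1711 CPM in gld2-parn1, with every marker counted in every genotype. The sum of 20 sperm markers was 1.08 to 4.90 CPM in wt, where msp-10, msp-19 and msd-1 had no count, and 146 to 413 CPM in the mutants. For 20 germline and oocyte markers it was 14294 to 16131 CPM in wt and 8210 to 11239 CPM in the mutants.

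Across the 5 genotypes the 6 genes did not move as a block. The lipases lipl-1 and lipl-2 were lowest in wt and highest in gld2-ccf1 or gld2-ccr4, lipl-5 was lowest in gld2 and highest in gld2-ccr4, lipl-3 and lipl-4 were highest in gld2, and acs-2 was highest in wt. Levels are given below in the same TMM-scaled CPM, and changes as log2 fold changes with their standard error (SE). In whole worms a change in the number of cells of a type and a change in the RNA of each cell cannot be told apart.

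**Figure D1:**
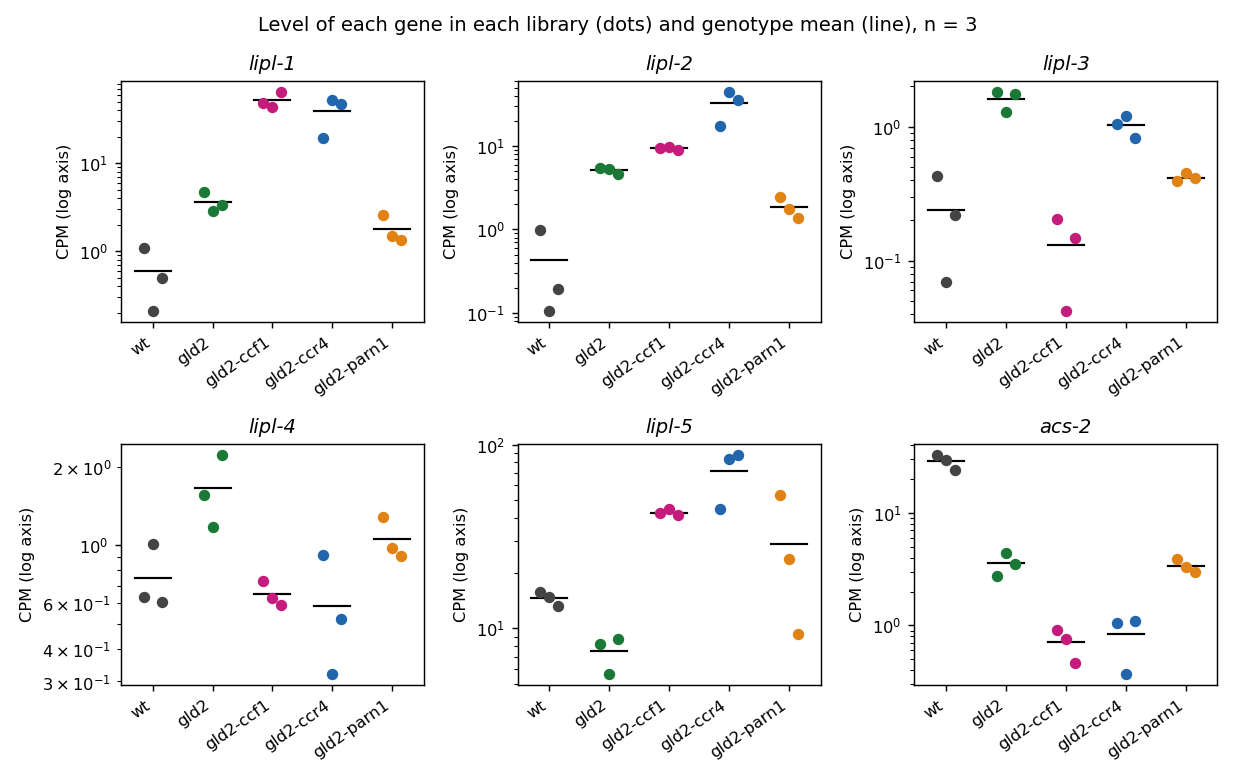
Level of lipl-1 to lipl-5 and acs-2 in each library, in CPM on a log axis with its own range for each gene; dots are the 3 libraries of a genotype, from replicate 1 on the left to replicate 3 on the right, and lines are genotype means. The level of lipl-1 is above 42 CPM in every gld2-ccf1 library and below 2 CPM in every wt library, while acs-2 is above 24 CPM in every wt library and below 4.5 CPM in all others.

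The gene lipl-1 encodes a fasting-responsive lipase that in the worm is known to break down lipid droplets in the lysosome. Its levels in replicates 1 to 3 were 1.096, 0.209 and 0.496 CPM in wt, from 33, 6 and 18 counts, and 4.67, 2.89 and 3.34 CPM in gld2. They were 48.6, 42.99 and 64.2 CPM in gld2-ccf1, 19.2, 52.2 and 46.4 CPM in gld2-ccr4, and 2.598, 1.48 and 1.35 CPM in gld2-parn1. In order of their means, gld2-ccf1 and gld2-ccr4 overlapped, and gld2, gld2-parn1 and wt followed without overlap between neighbours. Against wt the log2 fold change was 2.59 (SE 0.57) in gld2, 6.43 (SE 0.55) in gld2-ccf1, 6.02 (SE 0.55) in gld2-ccr4 and 1.595 (SE 0.60) in gld2-parn1. Without wt replicate 1 these were 3.31, 7.14, 6.74 and 2.31; that was the wt library with the most ribosomal RNA and the highest level of lipl-1.

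The gene lipl-2 encodes another lysosomal lipase of the family. Its levels were 0.996, 0.104 and 0.193 CPM in wt, from 30, 3 and 7 counts, and 5.41, 5.30 and 4.56 CPM in gld2. They were 9.39, 9.86 and 8.95 CPM in gld2-ccf1, 17.2, 44.4 and 35.8 CPM in gld2-ccr4, and 2.44, 1.77 and 1.38 CPM in gld2-parn1. No neighbours overlapped in the order gld2-ccr4, gld2-ccf1, gld2, gld2-parn1, wt. Against wt the log2 fold change was 3.58 (SE 0.55) in gld2, 4.46 (SE 0.54) in gld2-ccf1, 6.25 (SE 0.55) in gld2-ccr4 and 2.13 (SE 0.58) in gld2-parn1. Without wt replicate 1 these were 5.04, 5.91, 7.71 and 3.59, so the level of lipl-2 in wt rests largely on 1 library.

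The gene lipl-3 encodes the other lipase that, with lipl-1, is known to act on lipid droplets under HLH-30 and MXL-3. Its levels were 0.432, 0.0696 and 0.220 CPM in wt and 1.82, 1.28 and 1.75 CPM in gld2. They were 0.205, 0.0419 and 0.147 CPM in gld2-ccf1, from 7, 1 and 6 counts, 1.045, 1.21 and 0.823 CPM in gld2-ccr4, and 0.394, 0.450 and 0.412 CPM in gld2-parn1. The libraries of gld2 were highest, those of gld2-ccr4 came next without overlap, and those of gld2-parn1, wt and gld2-ccf1 overlapped with their neighbours in that order. Against wt the log2 fold change was 2.73 (SE 0.53) in gld2, 3.41 without wt replicate 1, and 2.07 (SE 0.53) in gld2-ccr4, 2.76 without that library. It was 0.79 (SE 0.55) in gld2-parn1 and -0.79 (SE 0.62) in gld2-ccf1, or 1.46 and -0.11 without wt replicate 1.

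The gene lipl-4 encodes the lipase whose excess in the gut is known to lengthen worm life span, through fatty acids that the carrier LBP-8 brings to NHR-49 and NHR-80. It was a low-level gene throughout, with 13 to 80 counts per library. Its levels were 0.631, 1.01 and 0.606 CPM in wt and 1.56, 1.178 and 2.22 CPM in gld2. They were 0.732, 0.629 and 0.588 CPM in gld2-ccf1, 0.918, 0.320 and 0.521 CPM in gld2-ccr4, and 1.29, 0.979 and 0.912 CPM in gld2-parn1. All neighbours overlapped in the order gld2, gld2-parn1, wt, gld2-ccf1, gld2-ccr4, while the gld2 libraries did not overlap with those of wt. Against wt the log2 fold change was 1.14 (SE 0.41) in gld2 and between -0.35 and 0.51 in the double mutants.

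The gene lipl-5 encodes a lipase that is also known to respond to fasting and was the most abundant of the 5 per length in wt. Its levels were 15.8, 14.9 and 13.2 CPM in wt and 8.19, 5.63 and 8.79 CPM in gld2. They were 42.3, 44.4 and 41.2 CPM in gld2-ccf1, 44.5, 83.1 and 88.1 CPM in gld2-ccr4, and 53.4, 23.7 and 9.29 CPM in gld2-parn1. The gld2 libraries lay below all others and the gld2-ccr4 libraries above those of gld2-ccf1, while the gld2-parn1 libraries spread over a 5.74-fold range that took in the levels of wt and gld2-ccf1. Against wt the log2 fold change was -0.95 (SE 0.52) in gld2, the opposite direction from the other lipases, 1.55 (SE 0.50) in gld2-ccf1, 2.30 (SE 0.51) in gld2-ccr4 and 0.98 (SE 0.50) in gld2-parn1.

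The gene acs-2 encodes the acyl-CoA synthetase that prepares fatty acids for mitochondrial beta-oxidation. Its levels were 32.9, 29.8 and 24.2 CPM in wt and 2.75, 4.40 and 3.53 CPM in gld2. They were 0.907, 0.755 and 0.466 CPM in gld2-ccf1, 1.045, 0.370 and 1.097 CPM in gld2-ccr4, and 3.91, 3.31 and 2.999 CPM in gld2-parn1. Every mutant library lay below every wt library, gld2 and gld2-parn1 overlapped, and gld2-ccr4 and gld2-ccf1 overlapped below them. Against wt the log2 fold change was -3.02 (SE 0.27) in gld2, -5.37 (SE 0.33) in gld2-ccf1, -5.11 (SE 0.32) in gld2-ccr4 and -3.08 (SE 0.28) in gld2-parn1, or levels 8.12-, 41.2-, 34.6- and 8.48-fold lower. These 4 values share the wt libraries.

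The double mutants were compared with gld2, the genotype to which each adds a knock-out by its label. In gld2-ccf1, 2 members rose, 3 fell and 1 did not pass the test, against 19.8% of the 16888 tested genes called higher and 16.7% called lower. Transcripts of lipl-1 rose by 3.83 on the log2 scale (SE 0.45, edgeR adjusted p = 5.02e-05) and those of lipl-5 by 2.5 (SE 0.52, edgeR adjusted p = 0.00352). Transcripts of lipl-3 fell by 3.52 (SE 0.56, edgeR adjusted p = 6.40e-05), those of acs-2 by 2.34 (SE 0.32, edgeR adjusted p = 1.21e-05) and those of lipl-4 by 1.34 (SE 0.42, edgeR adjusted p = 0.0160). The groups of each of these 5 genes did not overlap. How many of all tested genes also lacked overlap was not counted, here or below, so lack of overlap is a description only. The call of lipl-4 was lost without gld2 replicate 3, with a log2 fold change of -1.07 (edgeR adjusted p = 0.0919), and without gld2-ccf1 replicate 3, with -1.27 (edgeR adjusted p = 0.0548). It was also lost without the libraries above 4% ribosomal RNA (-1.05, edgeR adjusted p = 0.171). For lipl-2 the log2 fold change was 0.88 (SE 0.41, edgeR adjusted p = 0.115, 95% interval -0.03 to 1.80). Although its libraries did not overlap either, that difference passed only in a fit of the 6 libraries compared (edgeR adjusted p = 0.00258).

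In gld2-ccr4 against gld2, 3 members rose, 2 fell and 1 did not pass, against 11.1% of tested genes called higher and 9.23% called lower. Transcripts of lipl-1 rose by 3.43 on the log2 scale (SE 0.44, edgeR adjusted p = 2.82e-04), those of lipl-5 by 3.25 (SE 0.54, edgeR adjusted p = 0.00178) and those of lipl-2 by 2.67 (SE 0.42, edgeR adjusted p = 7.39e-04). Those of acs-2 fell by 2.09 (SE 0.30, edgeR adjusted p = 7.92e-05). The groups of these 4 genes did not overlap, and every alternative fit kept all 4 calls. Transcripts of lipl-4 fell by 1.49 (SE 0.42, edgeR adjusted p = 0.0152), a call lost without gld2 replicate 3, gld2-ccr4 replicate 2 or gld2-ccr4 replicate 3, with log2 fold changes of -1.22, -1.19 and -1.41 (edgeR adjusted p = 0.0821, 0.0770 and 0.0571). It was also lost without the libraries above 4% ribosomal RNA (-1.23, edgeR adjusted p = 0.0844). The difference in lipl-3 was -0.65 (SE 0.46, edgeR adjusted p = 0.350, 95% interval -1.68 to 0.38).

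In gld2-parn1 against gld2, 1 member rose, 1 fell and 4 did not pass, against 4.90% of tested genes called higher and 4.90% called lower. Transcripts of lipl-3 fell by 1.94 on the log2 scale (SE 0.49, edgeR adjusted p = 0.0168). That call was lost without gld2 replicate 1, gld2-parn1 replicate 1 or gld2-parn1 replicate 3, where log2 fold changes were -1.85, -1.91 and -1.93 (edgeR adjusted p = 0.0675, 0.0693 and 0.0676). It was also lost without the libraries above 4% ribosomal RNA (-1.87, edgeR adjusted p = 0.0569). Transcripts of lipl-5 rose by 1.94 (SE 0.52, edgeR adjusted p = 0.0416), but the change was 1.13 without gld2-parn1 replicate 1 (edgeR adjusted p = 0.140), and the call was lost in 9 of 16 alternatives. The 53.4 CPM of lipl-5 in gld2-parn1 replicate 1 came with 1 of the 4 later track numbers in the table's header, and the 9.29 CPM in replicate 3 with the highest share of ribosomal RNA in that genotype. With a term for the track numbers lipl-5 changed by 1.56 (edgeR adjusted p = 0.0882), and the part of either in the result was not tested further. The level of acs-2 did not differ detectably between gld2-parn1 and gld2, with a log2 fold change of -0.06 (SE 0.27, edgeR adjusted p = 0.920, 95% interval -0.67 to 0.54), and its sign turned in 3 of 16 alternatives. For lipl-1 the log2 fold change was -1.0 (SE 0.47, edgeR adjusted p = 0.220) and for lipl-2 it was -1.44 (SE 0.44, edgeR adjusted p = 0.0592), with every gld2-parn1 library below every gld2 library in both. The fit of the 6 libraries compared called both lower (edgeR adjusted p = 0.0333 for lipl-1 and 0.00148 for lipl-2), and lipl-2 also passed with scaling to somatic marker genes, at -1.82, and with a filter of 1 CPM in 3 libraries, at -1.44 (edgeR adjusted p = 0.0171 and 0.0436). All double mutants were compared with the same gld2 libraries.

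**Figure D2:**
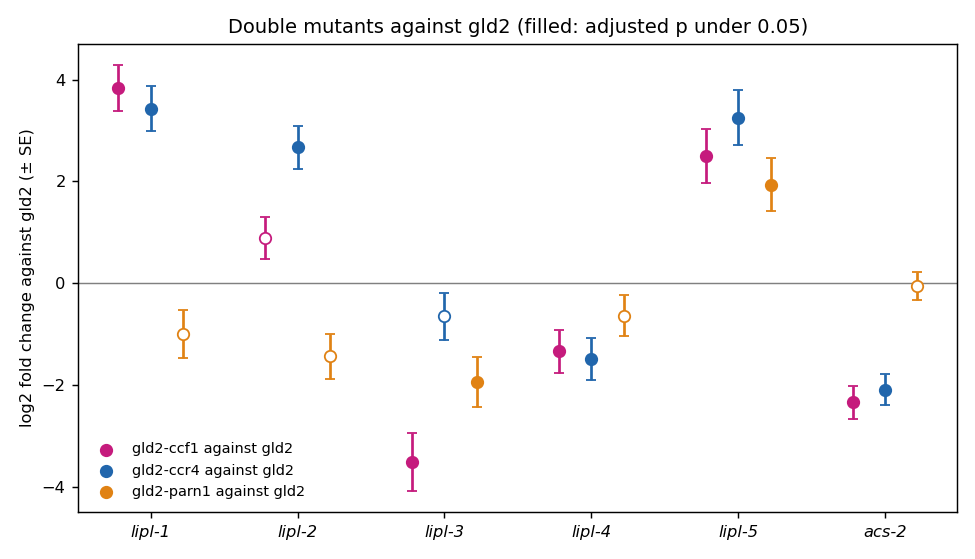
Log2 fold change of each gene in each of the 3 double mutants against gld2, with bars of 1 SE; filled points passed an adjusted p under 0.05 in edgeR's quasi-likelihood test over all tested genes. The genes lipl-1 and lipl-5 lie above 0 and acs-2 and lipl-4 below 0 in both gld2-ccf1 and gld2-ccr4, while lipl-2 is filled in gld2-ccr4 only and lipl-3 in gld2-ccf1 and gld2-parn1.

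The double mutants were also compared with each other, which leaves out the gld2 and wt libraries. Between gld2-ccf1 and gld2-ccr4, 0 members were higher in gld2-ccf1, 2 were lower and 4 did not pass, against 14.4% of tested genes called higher and 11.6% called lower. Transcripts of lipl-2 were lower in gld2-ccf1 by a log2 fold change of -1.79 (SE 0.40, edgeR adjusted p = 0.00639), and those of lipl-3 by -2.86 (SE 0.56, edgeR adjusted p = 9.99e-04). Both calls held in every alternative fit. No difference passed for lipl-1, with a log2 fold change of 0.40 (SE 0.39, edgeR adjusted p = 0.497, 95% interval -0.46 to 1.27), or acs-2, with -0.25 (SE 0.35, edgeR adjusted p = 0.653, 95% interval -1.04 to 0.54). For lipl-5 it was -0.75 (SE 0.48, edgeR adjusted p = 0.294, 95% interval -1.83 to 0.32).

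Between gld2-ccf1 and gld2-parn1, 2 members were higher in gld2-ccf1, 2 were lower and 2 did not pass, against 20% of tested genes called higher and 17.2% called lower. The level of lipl-1 was 4.83 higher on the log2 scale (SE 0.48, edgeR adjusted p = 1.65e-05) and that of lipl-2 was 2.32 higher (SE 0.44, edgeR adjusted p = 0.00122). For acs-2 the log2 fold change was -2.28 (SE 0.32, edgeR adjusted p = 1.90e-05). For lipl-3, with 1 to 7 counts per gld2-ccf1 library, it was -1.58 (SE 0.58, edgeR adjusted p = 0.0395). That call was kept in 7 of 16 alternatives and was lost without gld2-ccf1 replicate 2 or 3 (-1.24 and -1.63, edgeR adjusted p = 0.139 and 0.0828) or any gld2-parn1 library (-1.61, -1.52 and -1.59 without replicates 1 to 3, edgeR adjusted p from 0.0690 to 0.0871). Between gld2-ccr4 and gld2-parn1, 2 members were higher in gld2-ccr4, 1 was lower and 3 did not pass, against 7.34% of tested genes called higher and 5.95% called lower. The level of lipl-1 was 4.43 higher on the log2 scale (SE 0.47, edgeR adjusted p = 1.43e-04) and that of lipl-2 was 4.11 higher (SE 0.46, edgeR adjusted p = 9.93e-05), while that of acs-2 changed by -2.03 (SE 0.31, edgeR adjusted p = 1.96e-04). Without gld2-parn1 replicate 1, lipl-5 was also called higher in gld2-ccr4 (2.12, edgeR adjusted p = 0.0101) and in gld2-ccf1 (1.37, edgeR adjusted p = 0.0256) than in gld2-parn1.

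The 5 lipases were then set beside each other per kb of merged exon, the scale on which levels of different genes can be compared. Their summed level ran from 11.48 to 14.8 CPM per kb in wt and from 12.4 to 16.4 in gld2, so these genotypes overlapped in the sum while the shares of the lipases differed. The sum was 75.5 to 88.1 CPM per kb in gld2-ccf1, 64.4 to 140.7 in gld2-ccr4 and 10.3 to 47.2 in gld2-parn1. In wt lipl-5 made up 89.5% of the sum (mean of 3 libraries, range 84.6% to 92.9%). In gld2 it made up 40.1% (36.05% to 44.6%), with lipl-2 at 27.4% (22.9% to 33.5%), lipl-1 at 18.2% (16.003% to 21.3%), lipl-3 at 7.57% and lipl-4 at 6.71%. In gld2-ccf1 lipl-1 made up 47.9% (42.6% to 54.5%) and lipl-5 42.2% (37.0% to 46.6%), and lipl-3 and lipl-4 together less than 1%. In gld2-ccr4 the shares were 51.3% for lipl-5, 25.4% for lipl-1 and 22.2% for lipl-2, and in gld2-parn1 lipl-5 again took most, at 81.9% (71.5% to 89.6%). The sums of the intestine markers, given above, were lowest in gld2, as lipl-5 was. They were highest on average in wt, where lipl-5 was below the means of all 3 double mutants. They spanned 1561 to 2135 CPM in all. Taken singly, the 19 markers differed from their sum. Under the gld2-ccf1 label 11 were called above wt and 3 below, with a median log2 fold change of 0.56. The same counts held for gld2-ccr4, at a median of 0.39. For gld2-parn1 6 rose and 3 fell (median 0.16), while gld2 alone had 5 up and 8 down (-0.05). Medians of all genes were 0.19, 0.14, 0.15 and 0.14 in that order. Against gld2, where the lipases were tested, 8 intestine markers rose and 1 fell under gld2-ccf1 (median 0.49). Under gld2-ccr4 12 rose and 2 fell (0.78), while 8 rose and 2 fell under gld2-parn1 (0.21). All genes had medians of 0.0046, 0.0011 and 0.024 against gld2. The part of the intestine markers in the lipase levels was not tested.

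**Figure D3:**
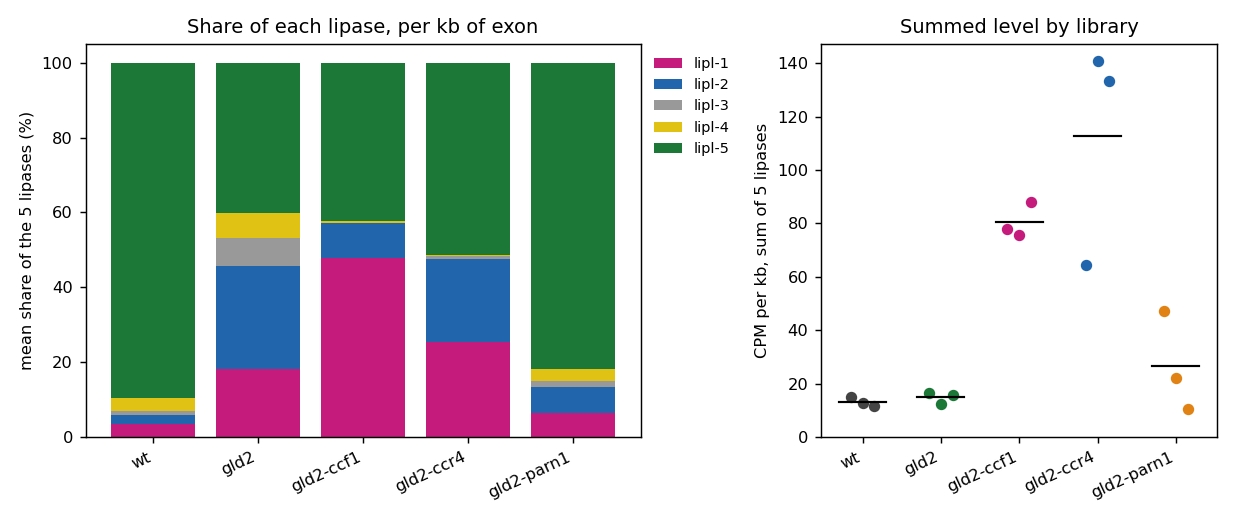
Left, mean share of each of the 5 lipases in their summed level per kb of exon, in percent, by genotype (n = 3). Right, that sum in each library in CPM per kb on a linear axis, with the genotype mean as a line. The sum is below 17 CPM per kb in every wt and gld2 library and above 64 in every gld2-ccf1 and gld2-ccr4 library, and lipl-5 takes 89.5% of it in wt and 40.1% in gld2.

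The ratio of lipl-1 to lipl-2 set gld2-ccf1 apart. Per kb, the libraries of gld2-ccf1 had ratios of 4.95, 4.17 and 6.85. The ratios of wt were 1.05, 1.91 and 2.46, and those of gld2 were 0.824, 0.521 and 0.699. For gld2-ccr4 they were 1.06, 1.12 and 1.24, and for gld2-parn1 they were 1.02, 0.798 and 0.935. Every gld2-ccf1 library lay above every other library, and gld2-ccr4, in which both lipases were also high, lay near 1.

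Deviations of lipl-1 and lipl-2 within genotypes were compared next. Over the deviations of the 15 libraries from their genotype means, on the log2 CPM scale, Pearson's r between lipl-1 and lipl-2 was 0.89. The 3 libraries had the same order for both genes in wt, gld2-ccr4 and gld2-parn1, but not in gld2 or gld2-ccf1. Pearson's r was 0.63 between lipl-1 and lipl-3, 0.52 between lipl-1 and lipl-5, and -0.50 between lipl-1 and lipl-4. Between lipl-4 and acs-2 it was 0.53, and between lipl-1 and acs-2 it was -0.27. These are descriptions over genes of the same libraries, with no test. The deviations of wt replicate 1 were 1.06 for lipl-1, 1.598 for lipl-2 and 0.93 for lipl-3, and those of wt replicate 2 were -1.06, -1.12 and -1.03 for the same genes. In gld2-ccr4 replicate 1 they were -0.91 for lipl-1, -0.80 for lipl-2 and -0.63 for lipl-5. The level of lipl-5 deviated by 1.23 in gld2-parn1 replicate 1 and by -1.29 in replicate 3, and that of acs-2 by -0.94 in gld2-ccr4 replicate 2.

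**Figure D4:**
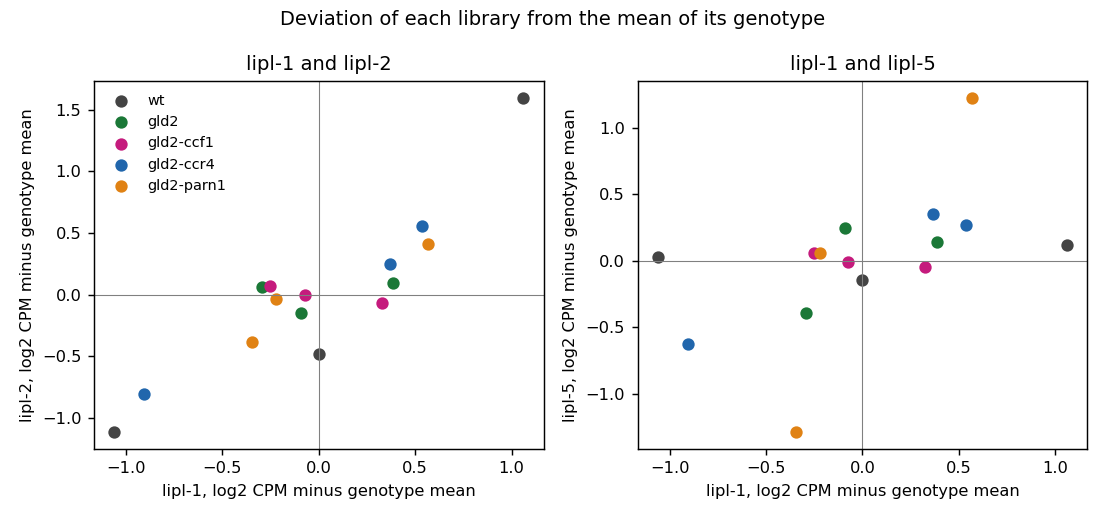
Deviation of each library from the mean of its genotype, on the log2 CPM scale, for lipl-1 against lipl-2 (left) and against lipl-5 (right); each dot is a library, coloured by genotype. The dots of lipl-1 and lipl-2 lie along a rising line (r = 0.89) with wt replicates 1 and 2 and gld2-ccr4 replicate 1 at its ends, and those of lipl-1 and lipl-5 scatter more (r = 0.52).

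The tested genes whose levels followed each member most closely were found by Pearson's r of log2 CPM over the 15 libraries, as a description. For lipl-1 these were F53A9.8 (r = 0.98), the tetraspanin gene tsp-10 (0.97) and math-45 (0.97). The mean level of F53A9.8 was 0.776 CPM in wt, 2.61 in gld2, 29.6 in gld2-ccf1, 18.02 in gld2-ccr4 and 1.47 in gld2-parn1, the same order as that of lipl-1. For lipl-2 they were sysm-1 (0.96), fbxa-114 (0.96) and kcc-3 (0.95), a gene of the potassium-chloride cotransporter family. For lipl-5 they were gba-4 (0.93), which encodes a glucocerebrosidase of the lysosome, the collagen gene col-180 (0.92) and T28C6.8 (0.89). The likeness of lipl-3 was closest to Y105E8B.7 (0.93), F23F12.13 (0.92) and Y51H4A.5 (0.92), and that of lipl-4 was lower, at 0.85 to let-418, let-502 and nlp-26. For acs-2 the genes were F23A7.8 (0.95), the pseudogene WBGene00002221 (0.95, Spearman's rho 0.83) and Y53C12A.6 (0.95). The mean level of F23A7.8 was 59.8 CPM in wt, 17.8 in gld2, 6.88 in gld2-ccf1, 7.64 in gld2-ccr4 and 10.7 in gld2-parn1.

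The rest of the family was measured beside the members. Transcripts of lipl-7, on chromosome IV, averaged from 10.9 CPM in wt to 16.22 CPM in gld2-ccf1 and did not pass the test in gld2 against wt (log2 fold change 0.31, SE 0.14, edgeR adjusted p = 0.0718) or in any double mutant against gld2. A call in gld2 against wt was gained without wt replicate 3 or gld2 replicate 3, at 0.39 and 0.40. Between gld2-ccf1 and gld2-ccr4, lipl-7 was called higher in gld2-ccf1 (0.41, SE 0.14, edgeR adjusted p = 0.0330). Transcripts of lipl-6 were rare, from 0.0221 CPM in wt, with 2 counts in all, to 0.455 CPM in gld2-parn1. The gene lipl-8 had 5 counts in all libraries and was not tested. Of the 2 tested genes, 1 was called above wt in each double mutant.

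Genes that act before and after the lipases were read from lists, with a gene called at an adjusted p under 0.05 in the same fit. In gld2 against wt, 28.8% of all tested genes were called higher and 20.2% lower, with a median log2 fold change of 0.14. The regulators and lipid carriers (33 genes) had 21 called higher and 5 lower in gld2-ccf1 against gld2, with a median of 0.54 against 0.00 for all genes. In gld2-ccr4 they had 3 higher and 7 lower (4 lower without gld2-ccr4 replicate 1 or 3), and in gld2 against wt 7 higher and 8 lower (4 higher without wt replicate 2). Leaving out 1 library gave 17 to 21 higher in gld2-ccf1. In gld2-parn1 2 were higher and 3 lower. The counts of gld2-parn1 were small in every list and moved with the library left out, so the range over the left-out libraries of gld2 and gld2-parn1 follows each in brackets, here 1 to 2 and 1 to 2. Scaled to somatic marker genes in place of all genes, the median of all genes itself moved to -0.52 in gld2-ccf1, -0.55 in gld2-ccr4 and -0.35 in gld2-parn1, and the 21 higher and 5 lower regulators became 7 and 8 with a median of -0.0016. In gld2-ccr4 they became 1 and 19, and in gld2-parn1 0 and 13. Of all genes called with somatic scaling, 11.6% were higher in gld2-ccf1, 6.14% in gld2-ccr4 and 5.76% in gld2-parn1. With TMM scaling these shares were 54.3%, 54.6% and 50%. Most calls of any list are thus lower under somatic scaling, and directions in the lists below are relative to the bulk of all genes.

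Among the regulators, mdt-15, which encodes the Mediator subunit that works with NHR-49, averaged 133 ± 14.9 CPM in wt, 70.5 ± 1.12 in gld2 and 163 ± 54.3 in gld2-ccf1. It fell by 0.92 on the log2 scale in gld2 (edgeR adjusted p = 0.00223) and rose by 1.21 in gld2-ccf1 against gld2 (edgeR adjusted p = 5.88e-04), and in gld2-ccr4 and gld2-parn1 it differed from gld2 by 0.39 and 0.13 without passing. The receptor gene nhr-49 changed little beside acs-2, with log2 fold changes of 0.28 in gld2 (edgeR adjusted p = 0.00288) and 0.22 in gld2-ccf1 (edgeR adjusted p = 0.0214). The call in gld2-ccf1 was lost without any 1 of the 3 gld2 libraries (0.21 to 0.22) or gld2-ccf1 replicate 2 (0.19). The lysosomal regulator hlh-30 averaged 9.45 ± 0.491 CPM in gld2 and 20.3 ± 10.9 in gld2-ccf1, a rise of 1.09 (edgeR adjusted p = 0.0106) that was 0.57 (edgeR adjusted p = 0.0512) without gld2-ccf1 replicate 2, the library with the most ribosomal RNA. Its counterpart mxl-3, the repressor of lipl-1 and lipl-3, fell by 1.38 in gld2-ccr4 (edgeR adjusted p = 0.0120), from 6.17 ± 1.93 to 2.38 ± 1.51 CPM, and it lost that call without gld2 replicate 2, gld2-ccr4 replicate 2 or gld2-ccr4 replicate 3 (-1.176, -1.17 and -1.097). The forkhead factor gene daf-16 rose by 0.99 in gld2-ccf1 (edgeR adjusted p = 0.00358), or 0.65 without gld2-ccf1 replicate 2, and the receptor gene nhr-80 rose by 1.03 (edgeR adjusted p = 2.29e-04). Somatic scaling lost the calls in gld2-ccf1 of hlh-30 (0.53, edgeR adjusted p = 0.0961) and nhr-80 (0.51, edgeR adjusted p = 0.0592). The carrier gene lbp-8, which links LIPL-4 to the nucleus, averaged 0.635 to 1.43 CPM by genotype and passed no test in these 4 comparisons, while the carrier gene lbp-5 rose by 1.51 in gld2-ccf1 and 0.98 in gld2-ccr4. The call of lbp-5 in gld2-ccr4 was lost with somatic scaling (0.43, edgeR adjusted p = 0.112).

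The other acyl-CoA synthetases were called in both directions: of 20 tested genes, 9 were higher and 5 lower in gld2 against wt, 6 and 5 in gld2-ccf1 against gld2, 4 and 3 in gld2-ccr4, with 4 higher (2 to 3) and 2 lower (0 to 1) in gld2-parn1. In gld2-ccr4 the higher count was 2 without gld2-ccr4 replicate 3, and the lower count was 1 without gld2 replicate 1. With somatic scaling the counts against gld2 became 2 higher and 12 lower in gld2-ccf1, and 1 and 8 in gld2-ccr4 as well as in gld2-parn1. With TMM scaling, all tested genes had 28.8% higher and 20.2% lower in gld2 against wt. In the 3 double mutants they had 19.8% and 16.7%, 11.1% and 9.23%, and 4.90% and 4.90%. The gene acs-1, which encodes a synthetase of branched-chain fatty acids, fell by 0.96 in gld2 (edgeR adjusted p = 3.89e-06). It then rose against gld2 by 1.79 in gld2-ccf1, by 1.61 in gld2-ccr4 and by 0.90 in gld2-parn1 (edgeR adjusted p = 2.02e-08, 2.14e-07 and 1.81e-04), from 63.7 ± 7.73 CPM in gld2 to 220 ± 24.8, 195 ± 6.76 and 119.1 ± 20.98 CPM. The largest rises of the list in gld2 against wt were those of acs-15, from 0.0203 ± 0.0178 to 7.81 ± 1.13 CPM, and acs-6, from 0.573 ± 0.194 to 15.9 ± 3.02 CPM. All 17 tested sperm markers rose in the same comparison, and their part in the rise of acs-15 and acs-6 was not tested.

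Of 26 mitochondrial beta-oxidation genes, 11 were higher and 6 lower in gld2 against wt, and in gld2-ccf1 against gld2 the counts were 3 higher and 13 lower with a median of -0.26. In gld2-ccr4 3 were higher and 8 lower, and in gld2-parn1 6 were higher (3 to 6) and 4 lower (2 to 4). With somatic scaling the counts of the 3 double mutants became 2 and 22, 2 and 18, and 3 and 16. The background of all tested genes under TMM scaling was 28.8% called higher and 20.2% called lower for gld2 against wt. Against gld2 it was 19.8% up and 16.7% down under gld2-ccf1, 11.1% up and 9.23% down under gld2-ccr4, and 4.90% each way under gld2-parn1. Transcripts of ech-1.2, the trifunctional enzyme gene, rose by 0.57 in gld2 and fell by 0.53 in gld2-ccf1 and 0.37 in gld2-ccr4, and those of let-721, an electron transfer dehydrogenase gene, rose by 0.64 and fell by 0.51 and 0.50 in the same comparisons. The dehydrogenase gene hacd-1, known as a target of NHR-49, went the other way, with no call in gld2 against wt (-0.01) and a rise of 1.62 in gld2-ccf1 (edgeR adjusted p = 1.99e-09), from 38.96 ± 1.17 to 120 ± 9.92 CPM. Of 30 peroxisomal beta-oxidation genes, 10 were higher and 5 lower in gld2 against wt, 10 and 7 in gld2-ccf1 (4 lower without gld2-ccf1 replicate 2), 9 and 0 in gld2-ccr4 (5 higher without gld2 replicate 3), with 6 higher (1 to 3) and 1 lower (0 to 1) in gld2-parn1. With somatic scaling the counts of the 3 double mutants became 2 and 16, 1 and 13, and 1 and 10. The acyl-CoA oxidase gene acox-1.2 rose by 1.85 in gld2, by a further 2.09 in gld2-ccr4 and by 0.96 in gld2-parn1, and differed by -0.06 in gld2-ccf1.

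The list of 20 fasting and NHR-49 response genes, which shares hacd-1 with the list above, had 3 higher and 4 lower in gld2 against wt (5 higher without wt replicate 1, and 2 and 1 lower without wt replicate 2 and gld2 replicate 3). It had 8 higher and 3 lower in gld2-ccf1 against gld2, 6 and 2 in gld2-ccr4 (1 lower without gld2 replicate 2 or 3 or gld2-ccr4 replicate 2 or 3), with 4 higher (4 in each) and 2 lower (1 to 3) in gld2-parn1. With somatic scaling these became 4 and 7, 2 and 8, and 4 and 7. Set beside the TMM counts, 28.8% of all tested genes were called up and 20.2% down from wt to gld2. The double mutants, in the order used here, had 19.8% up with 16.7% down, 11.1% with 9.23%, and 4.90% each way. The stearoyl-CoA desaturase gene fat-6 rose by 1.70 in gld2-ccf1 (edgeR adjusted p = 8.60e-06) and 1.03 in gld2-ccr4 (edgeR adjusted p = 9.82e-04), where acs-2 fell, and did not pass in gld2 against wt (-0.26, edgeR adjusted p = 0.215), where acs-2 was 8.12-fold lower. Transcripts of gpd-3, a glycolytic gene, fell by 1.52 in gld2 and rose by 1.73 in gld2-parn1.

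Genes of the lysosome itself were called in both directions, as genes in general were. Of 41 tested lysosomal enzymes and membrane proteins, 7 were higher and 10 lower in gld2 against wt, 15 and 11 in gld2-ccf1 against gld2, 13 and 6 in gld2-ccr4, with 3 higher (1 to 3) and 1 lower (1 in each) in gld2-parn1. With somatic scaling the last 3 pairs became 7 and 20, 8 and 22, and 2 and 21. With TMM scaling, all tested genes had 28.8% higher and 20.2% lower in gld2 against wt. In the 3 double mutants they had 19.8% and 16.7%, 11.1% and 9.23%, and 4.90% and 4.90%. The glucocerebrosidase gene gba-4, the gene most like lipl-5, rose by 2.17 in gld2-ccf1, by 2.66 in gld2-ccr4 and by 2.02 in gld2-parn1 (edgeR adjusted p = 0.00228, 0.00122 and 0.0154). Its level was 1.39 ± 0.473 CPM in gld2 and 6.29 ± 0.978, 8.87 ± 2.41 and 5.66 ± 4.17 CPM in the 3 double mutants. Like lipl-5 it lost its call in gld2-parn1 without replicate 1 of that genotype (1.24, edgeR adjusted p = 0.0552), and also without gld2 replicate 2 or 3. The likeness of gba-4 to lipl-5 was found over these same libraries, so their shared pattern is no separate evidence. The cathepsin B gene cpr-3 rose by 3.72 in gld2-ccf1, from 2.16 ± 0.564 to 28.5 ± 1.58 CPM, the acid sphingomyelinase gene asm-2 by 1.62 in gld2-ccr4 and the lysosomal nuclease gene nuc-1 by 1.47 in gld2-ccr4. Of 21 genes of the vacuolar proton pump, which acidifies the lysosome, 2 were higher and 12 lower in gld2 against wt, with a median of -0.35. Against gld2, 7 were higher and 2 lower in gld2-ccf1 (4 higher without gld2 replicate 3), 9 and 1 in gld2-ccr4 (4 higher without gld2 replicate 3 or gld2-ccr4 replicate 2), with 4 higher (1 to 5) and 1 lower (0 to 1) in gld2-parn1. With somatic scaling these became 0 and 13, 2 and 10, and 0 and 3. The intestinal subunit gene vha-6 fell by 0.58 in gld2 and rose by 0.91 in gld2-ccr4 (edgeR adjusted p = 5.47e-08).

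Of 25 autophagy genes, 7 were higher and 9 lower in gld2 against wt. Against gld2, 11 were higher and 6 lower in gld2-ccf1 (3 lower without gld2 replicate 1, gld2-ccf1 replicate 1 or gld2-ccf1 replicate 2), 0 and 6 in gld2-ccr4, with 1 higher (0 to 1) and 3 lower (1 to 3) in gld2-parn1. With somatic scaling these became 2 and 12, 0 and 22, and 0 and 17. With TMM scaling, all tested genes had 28.8% higher and 20.2% lower in gld2 against wt. In the 3 double mutants they had 19.8% and 16.7%, 11.1% and 9.23%, and 4.90% and 4.90%. The autophagy receptor gene sqst-1 rose by 1.36 and epg-5, which acts in the fusion of autophagosomes with lysosomes, by 1.27 in gld2-ccf1, and neither passed in gld2-ccr4 (-0.23 and -0.08). Of 14 tested other lipases and lipid droplet proteins, 5 were higher and 3 lower in gld2 against wt, 4 and 2 in gld2-ccf1 (1 lower without any 1 of the 3 gld2 libraries, gld2-ccf1 replicate 2 or gld2-ccf1 replicate 3), 0 and 1 in gld2-ccr4, and none was called in gld2-parn1. With somatic scaling the last 3 became 1 and 7, 0 and 10, and 0 and 5. The perilipin gene plin-1 fell by 0.88 in gld2 and rose by 0.75 in gld2-ccf1, and the hormone-sensitive lipase gene hosl-1 rose by 0.46 in gld2 (0.29 without gld2 replicate 1) and fell by 0.53 in gld2-ccr4, where lipl-1, lipl-2 and lipl-5 rose. The call of plin-1 in gld2-ccf1 was lost with somatic scaling (0.21, edgeR adjusted p = 0.227).

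**Figure D5:**
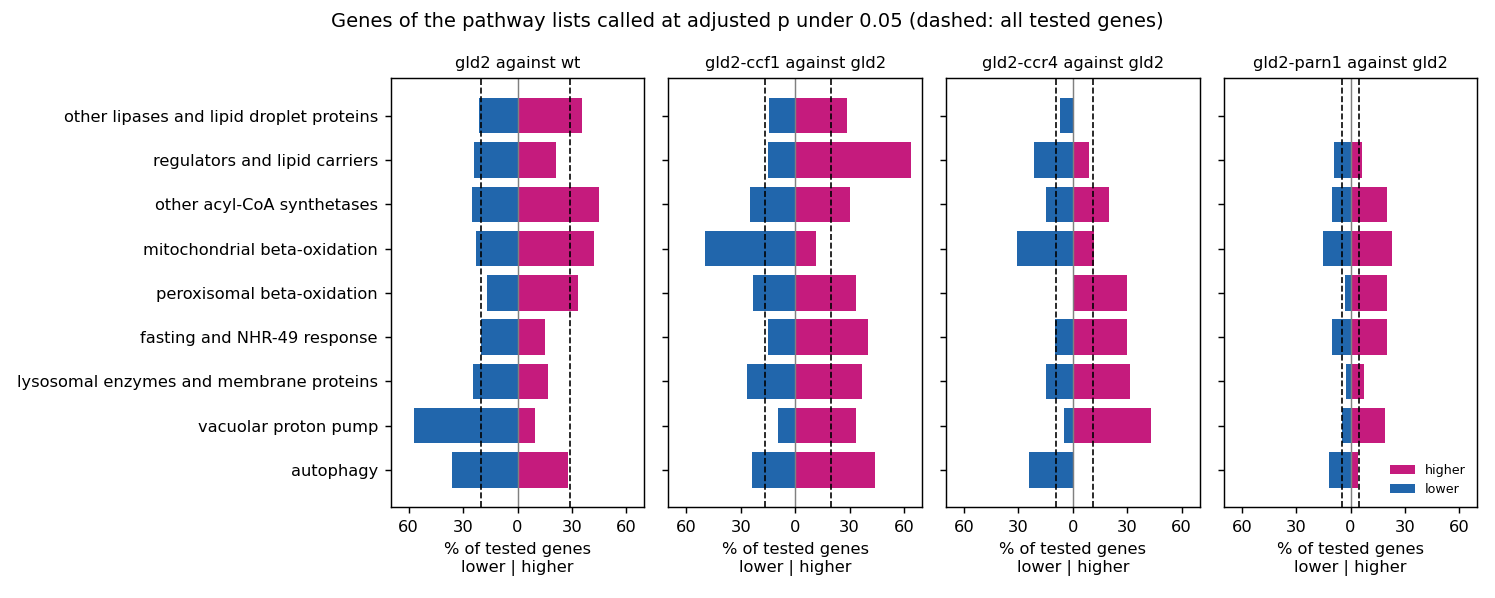
Share of the tested genes of each list that was called higher (right of 0) or lower (left of 0), in percent, in gld2 against wt and in each double mutant against gld2; dashed lines are the same shares over all 16888 tested genes. The longest bar to the right is that of the regulators and lipid carriers in gld2-ccf1 (21 of 33), and the longest to the left that of the vacuolar proton pump in gld2 against wt (12 of 21).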

How the data were processed

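Strand-specific libraries were made from Trizol-extracted total RNA of whole worms after Ribo-Zero depletion of ribosomal RNA, per the labels' protocols. The authors deposited raw read counts per gene and a second table of normalized signal; the signal was used only to check the column names, and was proportional to the counts in every library, to a relative error of 5.5e-10. The submitters' processing notes name build WBcel235 and, without their roles, DESeq2 1.18.1, STAR 2.5.2b, Subread 1.4.6-p4, featureCounts and FastQC. The counting of reads by strand or of reads matching several genes is not given in the sources used here, so values of close paralogs are uncertain.

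The test of the counts was that of edgeR 4.0.16 (R 4.3.3): filterByExpr, TMM factors, a robust glmQLFit of 5 genotype means over all 15 libraries with 10 residual degrees of freedom, and the two-sided glmQLFTest with Benjamini-Hochberg adjustment over 16888 genes. The SE divides the absolute log2 fold change by the root of the F statistic, and the 95% intervals use it with 10 degrees of freedom. The code of the fits was checked on simulated counts with a single dispersion and few changed genes. That check does not cover the noisier members or a broad change of the transcriptome. Replicates shared no copies, with a chi-square per degree of freedom of at least 13.4. Library totals of 28.07 to 39.45 M counts make 1 count about 0.03 CPM, so lipl-3 and lipl-4 are the least precise members.

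The members and gene lists were chosen with earlier results of these data known. Of 368 listed symbols 7 matched no annotated gene. Named list genes are the textbook regulators, the 2 called genes with the smallest adjusted p of each list in each of 4 comparisons and the most abundant gene of each list; the text gives some of them. No genome sequence was used here. Alternatives were other scaling (RLE, somatic markers, library sizes without abundant RNA), no or a stricter filter, DESeq2 1.42.0, a replicate block, a fit of 6 libraries, leaving out libraries, and a term for the header's track numbers, which was chosen after seeing the data.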

Additional observations from a re-analysis of the deposited data

How the results depend on the processing

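Of the tested comparisons, the number of members called moved by over 1.5 times in gld2-parn1 against gld2 alone: it was 2, and 1 with no filter, with the replicate block, with the track term and when the 4 libraries with more than 4% ribosomal RNA were left out, and 0 to 1 when 1 library was left out, while it was 3 with somatic scaling, the stricter filter or the fit of 6 libraries. Replicate numbers did not pair the libraries: deviations of same-numbered libraries correlated at -0.10 to 0.09 over 30 pairs, and the replicate block changed no other call of a member. Calls held in all 16 alternatives for lipl-1, lipl-3, lipl-5 and acs-2 in gld2-ccf1 against gld2 and for lipl-1, lipl-2, lipl-5 and acs-2 in gld2-ccr4 against gld2. The call of lipl-4 was kept in 13 and 12 of 16. Somatic scaling also called lipl-3 in gld2-ccr4 against gld2 (-1.19, edgeR adjusted p = 0.0447). Of the list counts, 202 moved and 1078 did not. Under somatic scaling 25 calls of named list genes were lost without a change of sign, and 51 were gained. Another 18 values that were called with TMM scaling changed sign, with log2 fold changes against gld2 as follows. In gld2-ccf1 they were -0.29 for daf-15, -0.022 for lbp-6, -0.037 for rict-1, -0.10 for acs-19, -0.32 for pck-2, -0.14 for asm-2, -0.056 for vha-19, -0.27 for vha-16, -0.15 for epg-6 and -0.31 for nhr-49. In gld2-ccr4 they were -0.089 for hacd-1, -0.079 for dhs-28, -0.059 for gpd-3, -0.19 for pck-2, -0.23 for vha-19, -0.16 for vha-16 and -0.23 for vha-3, and in gld2-parn1 -0.0598 for vha-3. That setting centres all genes at -0.35 to -0.55 in these comparisons. With TMM scaling the 20 muscle markers had medians against gld2 of 0.74 under gld2-ccf1, 0.62 under gld2-ccr4 and 0.46 under gld2-parn1. Of these markers 16, 16 and 10 were called higher and none lower. Medians of intestine markers were 0.49, 0.78 and 0.21 in that order, of neuron 0.17, 0.34 and 0.29, and of hypodermis 0.29, 0.20 and 0.29. How far these rises of somatic markers make up the shift was not tested. With few counts, levels of lipl-2 and lipl-3 in wt and of lipl-3 in gld2-ccf1 are limited by depth, and 3 libraries a genotype limit every comparison.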

Other observations

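Genes that deviated with lipl-1 within genotypes were looked up after its values had been seen, so they are listed as values with no test. Over the deviations of the 15 libraries from their genotype means, Pearson's r with lipl-1 was highest for F13H10.9 (0.92), the cadherin gene cdh-7 (0.91) and T05F1.9 (0.90), followed by lipl-2 (0.89). The nuclear receptor genes nhr-95 (0.89) and nhr-84 (0.86) and glo-1 (0.84), which encodes a Rab GTPase needed for the lysosome-related gut granules, were among the 15 highest. The mean levels of nhr-95 and nhr-84 over all libraries were 7.91 and 8.78 CPM.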
